A study of Mus musculus with 16 samples.

Results

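The miRNAs of the Dlk1-Dio3 imprinted region of mouse chromosome 12 were followed in small RNA libraries from pieces of blastocysts. Members were chosen by name, as both arms of 46 listed miRNA numbers, which gave 92 of the 1978 mature names in the count files. Of these 92 names, 47 had at least 1 count in the 16 libraries, and together they held 555 of 122251 counts.

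Blastocysts were cut with a laser into a piece that contains the inner cell mass, labelled polar, and a piece of mural trophectoderm, the layer facing the cavity away from the inner cell mass. Each piece came from normal blastocysts labelled WT and taken at embryonic day 4.5 (E4.5, n = 2 libraries per piece), from blastocysts paused in vivo and taken at EDG7.5 (labelled diapaused, n = 3 per piece), and from blastocysts paused with an inhibitor of the kinase mTOR (mTORi, n = 3 per piece). The study's stated subject is differential miRNA expression in embryos whose development is held by natural diapause or by blocking mTOR. The sources used here give no strain, inhibitor name or dose, no day for the mTORi blastocysts and no number of embryos per library. Stage and treatment therefore cannot be told apart between groups. The labels do not state that replicates came from separate embryos, so p-values measure only the spread between these samples.

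The Dlk1-Dio3 region carries the paternally expressed genes Dlk1, Rtl1 and Dio3 and, on the maternal copy, the long noncoding RNAs Meg3, Rian and Mirg together with one of the largest miRNA clusters of mammals. The maternal miRNAs are processed from long transcripts of the region, and their silencing in some induced pluripotent stem cell lines is known to go along with reduced developmental potential. A miRNA recognises its targets mainly through its seed, bases 2 to 8 from the 5′ end, so members with different seeds are expected to have largely different targets.

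The mature sequences below are those of the members with at least 10 counts, which carried most of the signal, from RefSeq on GRCm38.p6, written 5′ to 3′ with the seed in capitals. They are ordered by total count.
miR-379-5p: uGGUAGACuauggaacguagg
miR-541-5p: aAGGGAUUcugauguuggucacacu
miR-409-3p: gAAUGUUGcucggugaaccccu
miR-127-3p: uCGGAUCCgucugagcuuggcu
miR-434-3p: uUUGAACCaucacucgacuccu
miR-382-5p: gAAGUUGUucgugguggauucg
miR-323-3p: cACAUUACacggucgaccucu
miR-369-3p: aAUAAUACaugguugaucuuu
miR-433-3p: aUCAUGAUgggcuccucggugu
miR-410-3p: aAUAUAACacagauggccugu
miR-134-5p: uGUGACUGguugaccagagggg
miR-411-5p: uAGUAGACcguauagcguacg
miR-382-3p: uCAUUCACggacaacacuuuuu

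No seed occurred more than once among these 13 sequences. Over the 88 members with a RefSeq sequence there were 84 seeds, of which 4 were shared, each by 2 names. The shared seed with the most counts belonged to miR-379-3p and miR-411-3p, with 6 counts between them, and these are shown because they are the only detected pair in which 2 hairpins of the cluster carry one seed and differ in the rest of the molecule.
miR-379-3p: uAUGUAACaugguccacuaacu
miR-411-3p: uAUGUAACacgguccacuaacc
The most abundant member, miR-379-5p, shared its seed outside the list with miR-1193-5p, which had 0 counts. The cluster signal was thus spread over many seeds and was not a single seed family read under several names.

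The shallowest library, polar WT replicate 1, had 1744 counts and the deepest, mural diapaused replicate 2, had 20051. In each of 3 libraries 1 miRNA stood apart from the other replicates: miR-451a in polar WT replicate 2, miR-203 in polar mTORi replicate 3 and miR-5126 in mural WT replicate 2. The cluster's shares there were 1.03%, 1.06% and 0.0239%, each inside the range of the other libraries of its piece. The pieces were set beside a list of miRNAs for each. These lists were chosen with earlier results of these data known, so they are no independent check of the labels. The epiblast cluster miR-302/miR-367 had 15 counts in polar WT, 15 in polar diapaused and 2 in polar mTORi pieces, and 0 in every mural group. The mural list (miR-322, miR-351 and miR-503) took a mean of 7.37% of the counts in mural WT, 4.65% in mural diapaused and 3.01% in mural mTORi libraries, and 0.646%, 1.03% and 1.34% in their polar counterparts. The 2 polar mTORi counts of the epiblast list were both in replicate 2, with 0 in replicates 1 and 3, so this list did not separate the mTORi pieces at this depth. The other marker values lay on the sides the labels give.

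The cluster was found almost wholly in the polar pieces. Of its 555 counts, 544 came from polar libraries, which held 48489 counts in all, and 11 from mural libraries, which held 73762. In polar WT the 2 libraries had 43 and 51 cluster counts, or 2.47% (exact 95% interval 1.79 to 3.31) and 1.03% (0.77 to 1.36) of their counts. In polar diapaused libraries there were 126, 78 and 166 counts, or 0.869%, 0.820% and 1.83%. In polar mTORi libraries there were 15, 28 and 37, or 0.490%, 1.28% and 1.06%. The mural libraries had 3 and 2 counts for WT, 0, 1 and 2 for diapaused, and 2, 1 and 0 for mTORi. The libraries with 0 counts, mural diapaused replicate 1 and mural mTORi replicate 3, allow shares of up to 0.0238% and 0.086%, taking 3 counts as the limit that a count of 0 allows. The lowest polar share, 0.490% in mTORi replicate 1, lay above the highest mural share, 0.0466% in WT replicate 1, so the pieces did not overlap. All intervals on counts here are exact 95% intervals and cover counting error only, since duplicate reads without known removal are not independent molecules.

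**Figure D1:**
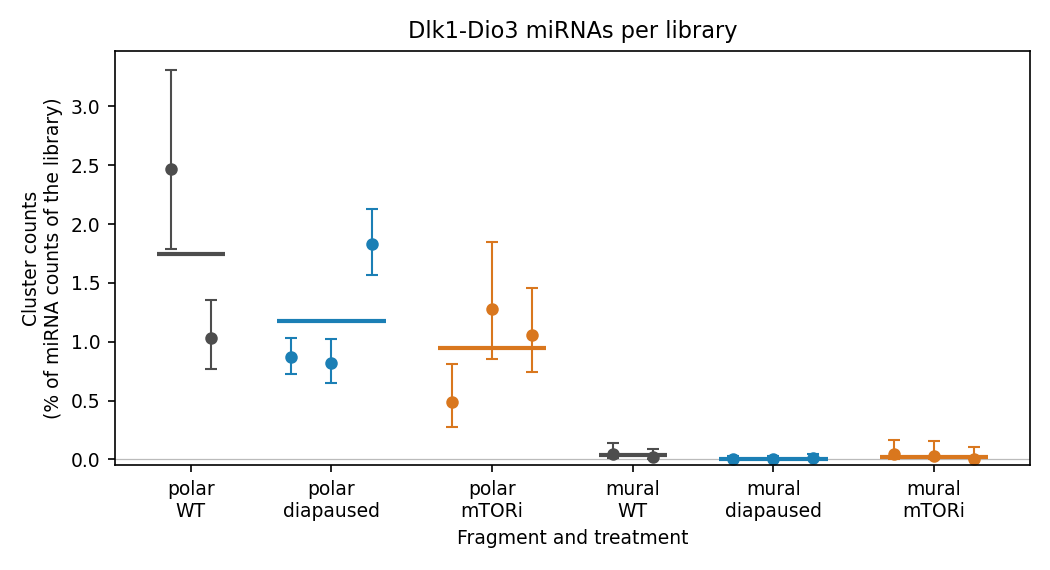
Share of each library's miRNA counts that came from the 92 cluster names, in percent, by piece and treatment. Points are libraries with exact 95% intervals for counting error, and horizontal bars are group means; the 8 polar libraries lie between 0.490% and 2.47% and the 8 mural libraries at or below 0.0466%.

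As group means, the polar share was 1.75% ± 1.01 (SD, n = 2) for WT, 1.17% ± 0.572 (n = 3) for diapaused and 0.943% ± 0.408 (n = 3) for mTORi. In mural libraries it was 0.0353% ± 0.0161 (SD, n = 2), 0.00616% ± 0.00683 (n = 3) and 0.0244% ± 0.0230 (n = 3) for the same treatments. A ratio of pooled polar to pooled mural cluster counts was taken over library sizes scaled as for the CPM levels below (TMM), not from these shares. It was 41.0 for WT (interval 16.9 to 129), 133 for diapaused (45.1 to 647) and 36.4 for mTORi (12.0 to 180). The 3 intervals overlap but cover counting error only, and a difference in this ratio between treatments was not tested. In pieces of tissue, fewer cells of a type and less RNA per cell cannot be told apart.

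The imbalance ran through the list. Of the 47 detected names, 38 (80.9%) were seen only in polar libraries, 8 in both pieces and 1, miR-539-5p with 1 count, only in a mural library. Of the 450 other detected names, 88 (19.6%) were seen only in polar libraries. Among names with at least 5 counts, 18 of 25 members (72.0%) and 16 of 276 other names (5.8%) were polar only. These shares describe the libraries and were given no test, since the names are not replicates. Members and other names were not matched by counts, and a name with few counts is more easily missed in 1 of the pieces.

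Other cell types that could be carried into a piece were read from marker lists. Leukocyte miRNAs (miR-142a, miR-150 and miR-223, 4 of 6 names detected) had 17 counts in polar WT, 14 in polar diapaused and 9 in polar mTORi pieces, and 0, 1 and 8 in the mural ones. The endothelial miR-126a (2 of 2 names) had 6, 23 and 2 counts in polar and 1, 7 and 7 in mural groups. The erythroid list (6 of 7 names) had 122 counts in polar WT, of which 120 were in replicate 2, and 26, 10, 15, 23 and 21 in polar diapaused, polar mTORi, mural WT, mural diapaused and mural mTORi libraries. The stromal list (3 of 8 names) had 6, 21 and 13 polar and 7, 61 and 9 mural counts. The neural list, of interest because the cluster is also known from brain, had 1 of 9 names detected, with 2 polar and 2 mural counts, and the muscle list 1 of 13 with 3 counts in all. The part of leukocyte and endothelial RNA in the cluster's distribution was not tested. The epiblast list had 0 counts in every mural group, and the part of cell makeup in this was not tested either.

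The hairpins of the members lay on the plus strand of chromosome 12 between 109580233 and 109743795 (GRCm38), a span of 163.6 kb, except that of miR-299b, which lies on the minus strand within the span and had 0 counts. Gaps of more than 10 kb divided them into 3 blocks. The proximal block, miR-493 to miR-136 (109580233 to 109595388), had 9 hairpins, of which 5 lie antisense to the exon of Rtl1, a retrotransposon-derived gene needed in the placenta. A block of 2 hairpins, miR-341 and miR-370 (109611500 to 109618336), lies in introns of Rian. The distal block, miR-379 to miR-410 (109709060 to 109743795), had 35 hairpins, of which 8 overlap exons and 4 lie in introns of Mirg. Genes of small RNA types, miRNA genes among them, and unconfirmed transcripts were left out of the annotation used. Of the gene models kept, 27 hairpins of the list overlapped none.

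The distal block gave 433 of the 555 counts (78.0%), the proximal block 111 (20.0%) and the Rian block 11 (1.98%). Within the distal block the hairpins with the most counts were miR-379 at its proximal end and miR-541 and miR-409 close to its distal end, with miR-382 between them. The proximal block's share of the cluster counts in polar pieces was 14.9% (8.39 to 23.7) in WT, 19.7% (15.8 to 24.2) in diapaused and 26.2% (17.0 to 37.3) in mTORi libraries, with overlapping intervals. All 3 blocks therefore contributed in polar WT and diapaused pieces, where the Rian block had 4 and 7 counts. In polar mTORi pieces the Rian block had 0 of 80 cluster counts, which by the 3-count limit allows a share of up to 3.75%.

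**Figure D2:**
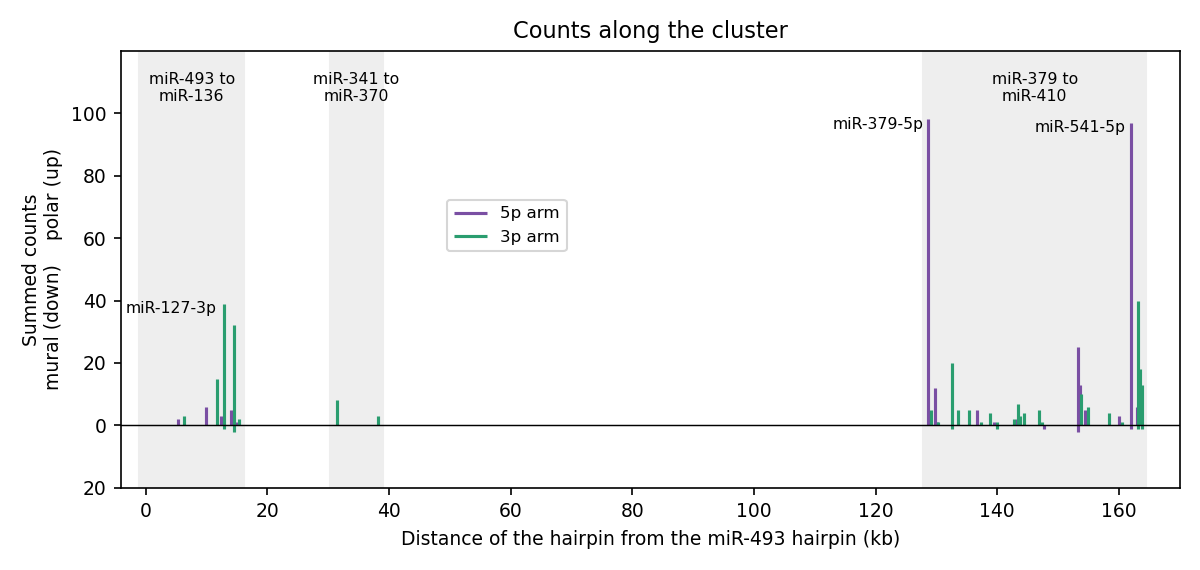
Summed raw counts of each mature name against the distance of its hairpin from the miR-493 hairpin in kilobases, with polar counts drawn upward and mural counts downward, and the 5p and 3p arms in 2 colours, offset slightly. Grey bands are the 3 hairpin blocks; the tallest lines are miR-379-5p with 98 polar counts and miR-541-5p with 97, and no mural line exceeds 2 counts.

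Each hairpin releases a 5p and a 3p arm, of which one is usually kept. Of 46 hairpins, 35 were detected and 12 gave counts of both arms. The arms were used about equally over the cluster, with 290 counts of 5p and 265 of 3p names, but each abundant hairpin had a clear leading arm. miR-379 gave 98 counts of its 5p and 5 of its 3p arm (95.1% 5p, interval 89.0 to 98.4), and miR-541 gave 98 and 0. miR-127 gave 3 of its 5p and 40 of its 3p arm (93.0% 3p, 80.9 to 98.5), and miR-409 gave 0 and 41. miR-382 was less one-sided, with 27 counts of 5p and 10 of 3p (73.0% 5p, 55.9 to 86.2). miR-485 gave 5 and 6 counts, with an interval that spans equal use.

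Of the 92 names, 4 passed the filter on low counts (a minimum of 10 counts scaled to library size in at least the number of libraries of the smallest group, and 15 in all): miR-379-5p, miR-541-5p, miR-409-3p and miR-127-3p. They held 277 of the 555 counts (49.9%). They passed through the polar groups, where they are high, so their number among the called names is not evidence on the list. They are tested here as single miRNAs within a fit of 102 names, and levels are CPM, counts of the tested names after TMM scaling of the libraries.

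miR-379-5p, the first hairpin of the distal block (109709060 to 109709125, overlapping none of the gene models kept), was seen in every polar library and in none of the mural ones. Its counts were 4 and 7 in polar WT, 15, 16 and 30 in polar diapaused and 5, 6 and 15 in polar mTORi libraries. The level was 1759 CPM ± 449 (SD, n = 2), 1818 ± 933 (n = 3) and 3223 ± 1870 (n = 3) in the same groups. With 3 counts over the group as the floor for mural pieces, the polar level was at least 7.99-fold higher for WT, at least 21.9-fold for diapaused and at least 11.8-fold for mTORi. These bounds, and those of the same kind below, leave out the counting error of the polar counts. The edgeR quasi-likelihood test called it in each treatment, with adjusted p of 0.0212, 0.00114 and 0.0241, and over their average with 7.2e-05.

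miR-541-5p, in an intron of Mirg (109742409 to 109742498), had the most counts of any member in polar diapaused replicates 1 and 2, and as many as miR-379-5p in replicate 3. It had 9 and 3 counts in polar WT, 22, 22 and 30 in polar diapaused and 4, 0 and 7 in polar mTORi libraries, and its 1 mural count was in diapaused replicate 2. The level was 2644 CPM ± 2870 (SD, n = 2), 2176 ± 686 (n = 3) and 1308 ± 1250 (n = 3) in the polar groups, and polar mTORi overlapped the mural libraries at 0. The polar level was at least 8.72-fold higher for WT and at least 5.0-fold higher for mTORi, and for diapaused the ratio was 79.7 (interval 13.9 to 3190). The edgeR test called it for WT (adjusted p = 0.0303), diapaused (0.00266) and the average (0.000347). For mTORi it did not pass (0.0963).

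miR-409-3p, also in an intron of Mirg (109743158 to 109743236), was less even between replicates. Its counts were 9 and 2 in polar WT, 7, 9 and 7 in polar diapaused and 0, 6 and 0 in polar mTORi libraries, with 1 mural count in WT replicate 1. In polar diapaused pieces the 3 libraries were close together, at 679.6 CPM ± 223 (SD, n = 3), and all mural diapaused libraries were at 0. It was called by edgeR for diapaused (adjusted p = 0.0489) and for the average (0.00722), and did not pass for WT (0.13) or mTORi (0.294).

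miR-127-3p (109592846 to 109592915) lies antisense to Rtl1 and is known to direct cleavage of the Rtl1 transcript. It had 5 and 2 counts in polar WT, 10, 2 and 9 in polar diapaused and 3, 7 and 1 in polar mTORi libraries, with 1 mural count in diapaused replicate 3. Its lowest polar level, 202.5 CPM, lay above its highest mural level, 83.8 CPM. By the edgeR test it was called over the average (adjusted p = 0.00199), with 0.0793 for WT, 0.0517 for diapaused and 0.0963 for mTORi. It was the member of the proximal block with the most counts.

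In background, edgeR called 3.92% of the 102 names higher in polar pieces for WT, where 2 of the 4 members were called. It called 4.9% for diapaused, where 3 members were called, 2.94% for mTORi, where 1 was, and 12.7% over the average, where all 4 were. miR-379-5p and miR-127-3p were the only 2 of the 102 names (1.96%) for which every polar library lay above every mural one in CPM. The median log2 difference over all 102 names was 0.03 for WT, 0.11 for diapaused and 0.09 for mTORi, values that TMM scaling draws towards 0. With RLE factors these medians were 0.02, 0.25 and 0.18, and with library size alone 0.12, 0.58 and 0.08.

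Several of these calls rested on few libraries. Without any 1 of polar WT replicate 1 and mural WT replicates 1 and 2, which leaves 1 library in a group, the WT calls by edgeR were lost. On all libraries DESeq2 called 3 of the 4 members for WT, and 20 of the 102 names in either direction. Without any 1 mural mTORi library the mTORi call was also lost, and 0 of the 106 names then tested were called. The diapaused call of miR-409-3p was lost without any 1 of the 6 diapaused libraries and with RLE factors (adjusted p = 0.0517; 0.0056 to 0.135 over the edgeR and DESeq2 alternatives). In the fits that left out a diapaused library, miR-379-5p and miR-541-5p were still called for diapaused. Without polar mTORi replicate 2, miR-409-3p and miR-127-3p did not pass the filter.

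**Figure D3:**
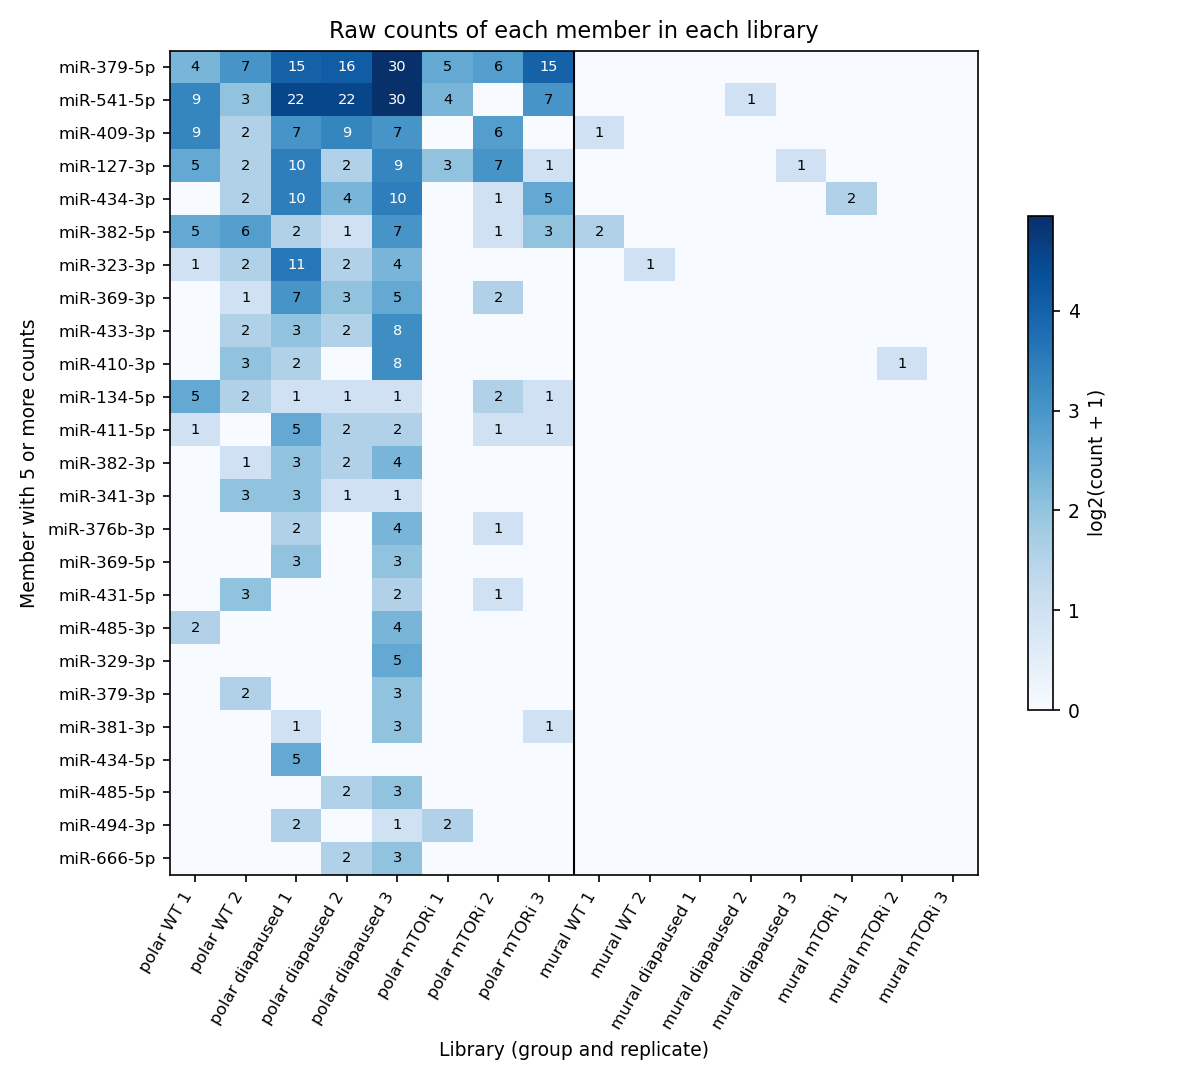
Raw counts of the 25 members with at least 5 counts (rows) in each of the 16 libraries (columns), shaded by log2(count + 1), with blank cells at 0 and a vertical line between the polar and mural libraries. The left side holds nearly all of the counts, and no mural cell exceeds 2.

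The 21 names with at least 5 counts that did not pass the filter followed the same division, and are given by counts with no test. miR-434-3p, antisense to Rtl1, had 2 counts in polar WT, 24 in polar diapaused and 6 in polar mTORi pieces and 2 in mural mTORi replicate 1, a polar to mural ratio of 20.3 over all libraries (interval 5.19 to 175). miR-382-5p had 11, 10 and 4 polar counts and 2 in mural WT replicate 1, a ratio of 15.9 (3.96 to 138). miR-323-3p had 3, 17 and 0 polar counts and 1 mural count (ratio 25.4, 4.07 to 1050). The next in order were polar only or nearly so. miR-369-3p, which belongs to a set of miRNAs used to reprogram somatic cells, had 18 polar and 0 mural counts, at least 7.63-fold higher in polar pieces. miR-433-3p had 15 and 0 (at least 6.36-fold), miR-410-3p 13 and 1 (ratio 16.5, 2.48 to 703) and miR-134-5p, known from neuronal dendrites, 13 and 0 (at least 5.51-fold). miR-411-5p had 12 and 0 (at least 5.09-fold) and miR-382-3p 10 and 0 (at least 4.24-fold).

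The remaining 12 had 5 to 8 counts, all polar. They were miR-341-3p with 8, miR-376b-3p with 7, miR-431-5p, miR-369-5p and miR-485-3p with 6 each, and miR-666-5p, miR-379-3p, miR-494-3p, miR-434-5p, miR-381-3p, miR-329-3p and miR-485-5p with 5 each. At 5 counts the bound by the 3-count floor was 2.12-fold, with the counting error of the 5 counts left out. All 5 counts of miR-329-3p were in polar diapaused replicate 3, and all 5 of miR-434-5p in polar diapaused replicate 1. The other 22 detected names had 1 to 4 counts each and 46 in all, and 45 names had none. Without the filter on low counts the edgeR fit covered 497 names, all 47 detected members among them. It called 3.42% of the names higher in polar pieces over the average, and 7 members: the 4 above with miR-134-5p (adjusted p = 0.00788), miR-382-5p (0.00268) and miR-434-3p (0.0098). Members at 0 counts in both a polar and a mural group could not be called over the average in this fit, whatever their other counts. Among them were miR-323-3p, miR-433-3p and miR-382-3p, at 0 in both mTORi groups, so the 7 and the 3.42% say nothing on such names.

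Between treatments, no difference of the 4 tested members passed the test in polar pieces; the summed cluster was not tested. In diapaused against WT polar pieces, edgeR called 7.84% of the 102 names and 0 of the 4 members, with 0 members at an unadjusted p under 0.05 and 0 by DESeq2. In mTORi against WT it called 22.5% of the names, and in diapaused against mTORi 15.7%, again with 0 members by either measure and by DESeq2. The comparisons with WT share the polar WT libraries. The polar groups of each member overlapped in CPM.

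For diapaused against WT, the log2 difference was 0.10 (SE 0.76, interval -1.57 to 1.76) for miR-379-5p and -0.04 (SE 0.95, -2.07 to 2.0) for miR-541-5p. It was -1.03 (SE 1.13, -3.46 to 1.40) for miR-127-3p and -1.62 (SE 1.23, -4.27 to 1.04) for miR-409-3p. In edgeR the adjusted p ran from 0.445 to 0.992. For mTORi against WT it was 0.94 (SE 0.80, -0.80 to 2.67) for miR-379-5p, 0.23 (SE 1.18, -2.29 to 2.74) for miR-127-3p, -0.70 (SE 1.05, -2.95 to 1.54) for miR-541-5p and -1.40 (SE 1.43, -4.49 to 1.68) for miR-409-3p, with adjusted p of 0.421 to 0.907. For diapaused against mTORi it was 0.67 (SE 0.85, -1.15 to 2.49) for miR-541-5p, -0.21 (SE 1.29, -3.01 to 2.58) for miR-409-3p, -0.84 (SE 0.62, -2.20 to 0.51) for miR-379-5p and -1.25 (SE 0.97, -3.33 to 0.83) for miR-127-3p, with adjusted p of 0.402 to 0.945. Of these 12 intervals, 9 hold both a 2-fold rise and a 2-fold fall, so equal levels are not shown. The other 3 exclude one of them: a 2-fold fall of miR-379-5p in mTORi against WT, and a 2-fold rise of miR-379-5p and of miR-127-3p in diapaused against mTORi.

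**Figure D4:**
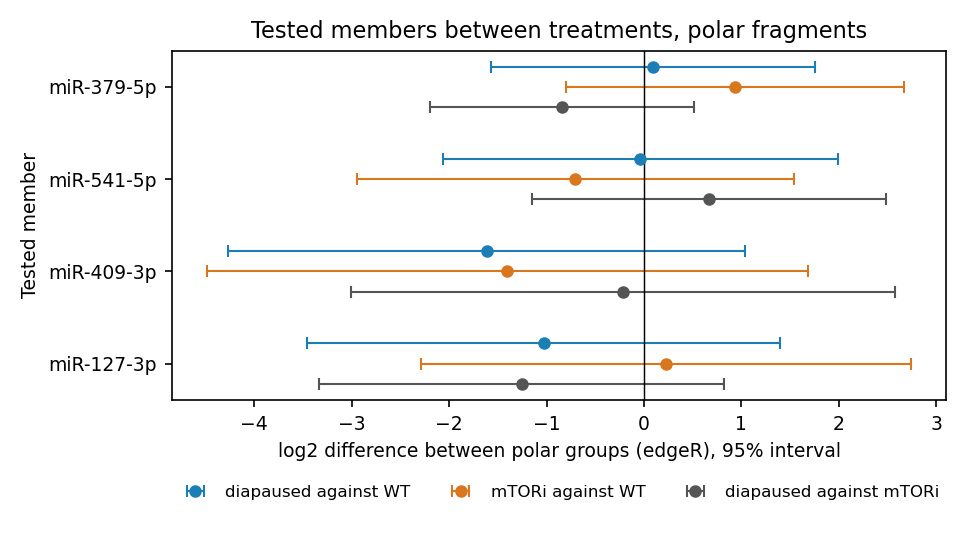
Log2 differences of the 4 tested members between the polar groups, by edgeR, with 95% intervals; each colour is 1 comparison of treatments. All 12 intervals include 0.

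The difference between pieces was also compared between treatments. The change in the polar to mural log2 difference from WT to diapaused was -2.36 for miR-127-3p, -1.34 for miR-541-5p, 0.68 for miR-409-3p and 0.10 for miR-379-5p, and edgeR called 0.0% of the 102 names and 0 members (adjusted p = 0.92 to 1). From WT to mTORi it was 0.94 for miR-379-5p, 0.90 for miR-409-3p, 0.23 for miR-127-3p and -0.70 for miR-541-5p, again with 0.0% called and 0 members (adjusted p = 0.895 to 1). No member had an unadjusted p under 0.05 in either, and DESeq2 called 0 members and, of the 102 names, 0 and 1. As each member is at 0 in at least 1 mural group, these fitted values depend on the prior count and are no bounds. Where both mural groups of a comparison were at 0, the test could not call a member, and its p-value there is no result. This held for miR-379-5p in both comparisons and for miR-127-3p and miR-541-5p from WT to mTORi.

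Among the untested names, 2 neighbours in the exons of Mirg stood lower in polar diapaused than in polar WT pieces by counting. miR-134-5p (109734139 to 109734209) had 5 and 2 counts in polar WT and 1 in each polar diapaused library, although the latter were deeper, and the pooled ratio of diapaused to WT was 0.082 (interval 0.0137 to 0.359). miR-382-5p (109733771 to 109733846) had 5 and 6 against 2, 1 and 7, a ratio of 0.174 (0.0662 to 0.451). These intervals leave out the spread between libraries. In the edgeR fit without the filter, which called 1.21% of 497 names, neither passed, with adjusted p of 0.364 and 0.585. They were picked out after their values were seen. Between diapaused and mTORi polar pieces, miR-323-3p had 17 and 0 counts, with 11 of the 17 in polar diapaused replicate 1. The bound was 1.27-fold, with the counting error of the 17 counts left out. In the edgeR fit without the filter miR-323-3p did not pass, with an adjusted p of 0.471, so a difference was not shown. The ratio of diapaused to WT for miR-323-3p was 1.08 (0.313 to 5.77). miR-433-3p (13 and 0), miR-410-3p (10 and 0) and miR-382-3p (9 and 0) had bounds under 1, so a difference was not detectable at this depth.

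The number of cluster names seen was compared as counted and at equal depth. Polar WT pieces gave 24 names, polar diapaused 40 and polar mTORi 15, and the mural groups 4, 3 and 2. Thinned to the 1744 counts of the shallowest library, a polar library held on average 11.6 names for WT, 11.2 for diapaused and 6.62 for mTORi, against 15.5, 24.7 and 8.0 unthinned. The mural means at that depth were 0.58, 0.11 and 0.37 names. In mTORi the 4 tested members made up 67.5% of the cluster counts, against 43.6% in WT and 48.4% in diapaused polar pieces. Single libraries overlapped, at 62.8% and 27.5% in polar WT, 42.9%, 62.8% and 45.8% in polar diapaused and 80.0%, 67.9% and 62.2% in polar mTORi. The larger number of names in diapaused than in WT polar pieces was thus not seen at equal depth.

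Other imprinted miRNAs were set beside the cluster. The Sfmbt2 cluster, a paternally expressed miRNA cluster known from the placenta (35 of 80 names detected), took 2.22% of counts in polar WT, 3.25% in polar diapaused and 1.48% in polar mTORi libraries, and 2.64%, 1.89% and 1.59% in mural ones. miR-296 and miR-298 of the Gnas locus took 0.686%, 0.540% and 0.233% in polar and 0.473%, 0.228% and 0.194% in mural pieces. miR-483, within Igf2, had 6, 51 and 6 polar and 3, 11 and 3 mural counts, miR-335, within Mest, had 4, 7 and 2 polar and 3, 0 and 1 mural counts, and miR-675, from H19, had 1 count. The mean share of miR-483 was also higher in polar than in mural pieces in each treatment, at 0.153% against 0.0197% for WT, 0.148% against 0.0248% for diapaused and 0.0686% against 0.0267% for mTORi, with polar mTORi replicate 1 at 0 counts. A higher polar share was thus not particular to the Dlk1-Dio3 list, and the differences between these lists were not tested.

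The 5 tested names outside the list whose levels most resembled the summed cluster over the 16 libraries, by Spearman's rho on log2 CPM, were miR-92a-3p (0.78), miR-92b-3p (0.72), miR-2137 (0.64), miR-5126 (0.48) and miR-296-5p (0.47). Within the 8 polar libraries the values were 0.69, 0.64, -0.19, 0.07 and 0.24. Those of miR-92a-3p and miR-92b-3p were thus of like size within the polar pieces, and those of miR-2137 and miR-5126 were not. The libraries differ in depth and piece, which all of these values share, and they are descriptions without a test.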

How the data were processed

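The deposited files give counts per mature miRNA name, whole numbers without normalization, for 16 libraries. Per the labels' protocols, RNA was ligated to adapters carrying molecular identifiers and amplified over 12 to 20 PCR cycles without size selection, and reads were 75 nt long; the build is GRCm38, per the submitters' processing notes. The aligner and counting tool, and any collapsing of reads by identifier, were not given in the sources used here. For 3 libraries, mural and mTOR-inhibited by their tissue and treatment labels and headers, the titles name no piece and add diapaused; the labels were followed.

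Groups were compared in R 4.3.3 with edgeR 4.0.16 (filterByExpr, minimum count 10 and total 15; TMM; two-sided quasi-likelihood test over all 16 libraries, 1 mean per group), which tested 102 names. The labels do not say whether equal replicate numbers pair polar and mural libraries. In mTORi, deviations of same-numbered libraries correlated at 0.159, 0.112 and 0.183, each the highest for its number, so they may be pairs. The main p-values come from the fit without a block, and fits with a replicate block were alternatives. A call means an adjusted p (Benjamini-Hochberg) below 0.05. DESeq2 1.42.0 was an alternative. The script was tested on simulated data. Logarithms of CPM used a prior count of 2. A group at 0 was bounded with 3 counts over the group, without the counting error of the other group. Other ratios of counts have exact intervals, and ratios and bounds were taken over TMM-scaled library sizes. Positions and gene overlaps come from the GRCm38 annotation, and 88 of 92 members matched a RefSeq sequence.

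Named were every tested member, members with at least 5 counts, and the 5 other tested names most like the summed cluster. The rule allowed a sequence for every named member; those under 10 counts were left out except the pair with a shared seed. The members and lists were chosen with earlier results of these data known. Alternatives were other scalings, filters, tools, blocks, libraries and denominators.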

Additional observations from a re-analysis of the deposited data

Results flagged for a closer look

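miR-1247-5p, a miRNA of the Dlk1-Dio3 region that the list does not include, had 5 counts in all libraries, all of them polar: 3 and 1 in polar WT replicates 1 and 2 and 1 in polar mTORi replicate 2, against 0 in the mural libraries. It was picked out because it is a signal outside the names analysed. Of 25 names between Dlk1 and Dio3 that the list leaves out, 4 were detected, with 9 counts.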

How the results depend on the processing

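All polar to mural log2 differences of the tested members kept their direction in 254 alternative values (2.28 to 8.29), of which 19 lost their call and 10 gained one. Each of these members had 0 or 1 mural counts in all, so the direction could hardly change and is no separate support. Calls for WT (2 members) ranged from 0 to 1 when 1 library was left out, with the lone sample of a piece then assumed to vary like the other groups, and were 1 without the 3 libraries in which 1 miRNA stood apart, 4 with a replicate block within treatment (polar and mural libraries of equal number paired) and 2 with the planned replicate block. For mTORi (1 member) they were 2 without the filter, 3 by DESeq2 and 0 to 1 with 1 library left out. Over the average (4 members) they were 7 without the filter and 2 to 5 with 1 library left out, the 2 being without polar mTORi replicate 2, where only 2 members passed the filter. For diapaused (3 members) they were 2 to 4; the planned replicate block called 2, without miR-409-3p (adjusted p = 0.0753; 0.0056 to 0.135 over its alternatives), and the block within treatment called 4. Deviations of same-numbered polar and mural libraries correlated at 0.11, -0.011 and 0.364 for diapaused, where not every sample correlated best with its own number and the samples share only a number, and at 0.307 for WT, where 2 pairs do not settle it. In mTORi, where equal numbers may be pairs, both blocks called 1 member, as without a block. Of all names, 11 were called for WT (20 by DESeq2, 19 with the block within treatment, 7 in a fit of only these groups, 4 to 8 with 1 library left out), 19 for diapaused (29 in a fit of only these groups, 30 by DESeq2, 33 without the 3 libraries, 5 to 11 with 1 left out) and 5 for mTORi (10 by DESeq2, 9 without the filter, 0 in a fit of only these groups, and 0 to 6 with 1 left out). Between polar treatments, 8 were called for diapaused against WT (15 by DESeq2, 13 with RLE factors, 2 to 7 with 1 left out), 23 for mTORi against WT (5 without the 3 libraries, 2 in a fit of only these groups, 4 to 28 with 1 left out) and 16 for diapaused against mTORi (3 in a fit of only these groups, 4 to 18 with 1 left out). For the change of the polar to mural difference from WT to mTORi, 0 names were called and 6 without the filter. No member passed the filter in the WT or mTORi fits of only the groups compared. The block within treatment and the omission of the 3 libraries were chosen after seeing the data. Outside the miR-290/miR-295 cluster the share of the list was 3.65%, 2.01% and 1.53% in polar WT, diapaused and mTORi libraries and 0.0716% in mural WT.

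Between polar treatments, 9 log2 differences changed sign under an alternative, none of them called. For diapaused against WT, miR-379-5p was -0.016 with RLE factors, -0.376 with the replicate block, -0.308 without the 3 libraries, -0.035 by DESeq2 and -0.373 to 0.436 with 1 library left out. miR-541-5p was 0.001 with library size alone, 0.035 in a fit of only these groups and -1.077 to 1.619 with 1 left out. With 1 left out miR-127-3p ran from -2.074 to 0.350 and miR-409-3p from -2.738 to 0.521. For mTORi against WT, miR-127-3p was -0.076 without the filter, -0.058 by DESeq2, -0.457 without the 3 libraries and -0.764 to 1.659 with 1 left out, and miR-379-5p was -0.040 without the 3 libraries. miR-409-3p ran from -2.424 to 0.841 and miR-541-5p from -1.672 to 1.040 with 1 left out. For diapaused against mTORi, miR-409-3p ran from -1.076 to 0.037. The cause was not tested. The depth, 1744 to 20051 counts, limits every value.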
